A study of Mus musculus with 12 samples.

Results

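Astrocyte genes are followed here through the hypothalamus of obese mice given withaferin A, celastrol or the vehicle DMSO. The set holds 10 genes in common use as astrocyte markers, given as a list of names: Gfap, Aqp4, Gjb6, Gja1, Sox9, Slc1a2, Slc1a3, Aldh1l1, Glul and S100b. Each is represented by the probe set, among those carrying its symbol alone, with the highest mean over the 12 arrays. All 10 had such a probe set, out of 19938 genes that had one, and all 10 lay above the filter on dim genes that left 14953 genes for testing. Glul was the 1 gene of the set with a second probe set.

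Male C57BL/6J mice ate a diet with 45% fat for 20 weeks, starting when they were 3 weeks old, and were 23 weeks old on the labels. All of them first had 4 days of intraperitoneal DMSO. For a further 4 days they received withaferin A at 2 mg/kg, celastrol at 100 ug/kg or DMSO again, once a day. Each group has 4 arrays, and the labels call them biological replicates. The compounds, both plant products that lower food intake in obese mice, were given at different doses, and no lean or untreated mice are among the groups. A low signal of an astrocyte gene in whole tissue can come from fewer astrocytes or from less RNA per astrocyte, and these arrays cannot tell the 2 apart.

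The deposited values are log2 signals, so a difference of 1 is a 2-fold difference. Array medians ran between 6.89 and 6.98 and correlations between arrays over all probe sets between 0.981 and 0.994. Of 10 genes typical of hypothalamic neurons, such as Pomc, Oxt, Hcrt and Sim1, 9 had a probe set and all 9 lay above the dim filter of 5.81 on every array. Celastrol replicate 2 read higher than the other arrays for pituitary genes: Gh, growth hormone, read 10.96 there and at most 7.98 on the other 11 arrays. The mean level of 6 pituitary genes was 0.07 to 0.42 log2 units above the DMSO mean with withaferin A, 0.39 to 2.09 above it with celastrol, and between -0.20 and 0.16 with DMSO. Its part in the results was not tested, but values without celastrol replicate 2 are given where they matter. Withaferin A replicates 1 and 3 read closer to celastrol than replicates 2 and 4 did on several genes described below. The labels offer no way to check dosing or labelling of these arrays, so the withaferin A means may not stand for a uniform group.

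Astrocytes surround synapses and blood vessels and keep the extracellular fluid stable. They clear glutamate from the synapse, turn it into glutamine, pass ions and metabolites to each other through gap junctions, and exchange water at endfeet around capillaries. In the hypothalamus they also meet leptin, insulin and nutrients arriving from the blood, and in mice high-fat feeding is known to make them reactive, a state marked by more glial filament. The 10 genes cover these jobs: glutamate handling (Slc1a2, Slc1a3, Glul), coupling (Gja1, Gjb6), water (Aqp4), the filament (Gfap), identity (Sox9) and the widely used labels Aldh1l1 and S100b.

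The sequences just upstream of 4 of these genes are printed because their signals varied together across the arrays, Gjb6, Glul and Gja1 in one direction and Slc1a3 in the other, as described further on. Slc1a3 ran less strongly against Gja1 than against Gjb6 and Glul. Each line holds the 250 bases before the annotated start, 5' to 3' on the strand of the gene, from RefSeq on GRCm38.p6. The windows are chr14:57133612-57133861 (minus strand) for Gjb6, chr1:153899679-153899928 (plus) for Glul, chr10:56377050-56377299 (plus) for Gja1 and chr15:8710808-8711057 (minus) for Slc1a3. Capitals mark matches to any of 9 short motifs, searched on both strands.
Gjb6: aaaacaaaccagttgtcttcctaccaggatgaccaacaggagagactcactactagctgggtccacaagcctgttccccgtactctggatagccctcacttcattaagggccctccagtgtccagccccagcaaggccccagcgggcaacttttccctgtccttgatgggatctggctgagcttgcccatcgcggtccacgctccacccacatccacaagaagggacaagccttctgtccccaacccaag
Glul: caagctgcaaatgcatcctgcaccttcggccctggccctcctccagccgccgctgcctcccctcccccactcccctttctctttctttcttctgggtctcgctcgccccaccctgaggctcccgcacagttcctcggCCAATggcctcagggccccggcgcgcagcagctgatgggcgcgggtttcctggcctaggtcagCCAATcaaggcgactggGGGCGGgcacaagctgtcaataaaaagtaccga
Gja1: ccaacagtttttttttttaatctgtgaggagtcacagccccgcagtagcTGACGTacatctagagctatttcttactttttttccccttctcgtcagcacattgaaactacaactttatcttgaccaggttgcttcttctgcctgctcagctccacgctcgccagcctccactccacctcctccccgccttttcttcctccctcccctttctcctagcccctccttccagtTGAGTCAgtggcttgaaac
Slc1a3: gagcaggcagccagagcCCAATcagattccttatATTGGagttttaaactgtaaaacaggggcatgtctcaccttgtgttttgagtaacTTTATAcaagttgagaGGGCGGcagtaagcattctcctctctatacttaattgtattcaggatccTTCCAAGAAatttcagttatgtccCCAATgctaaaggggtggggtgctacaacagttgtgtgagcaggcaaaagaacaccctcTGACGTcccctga

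The motifs were chosen with these windows in view, so the matches describe the letters and are not binding sites. They were TTCNNNGAA (a STAT palindrome, in 7.02% of 32841 promoter windows of this length), a glucocorticoid receptor palindrome (0.387%), a nuclear factor I palindrome (0.0365%), AACAAT (SOX, 9.43%), TGANTCA (AP-1, 6.75%), TGACGT (cAMP response, 6.47%), CCAAT (33.9%), GGGCGG (32.7%) and TATAAA (12.4%). The Gjb6 window held none of the 9. The Slc1a3 window held the most: TTCNNNGAA beginning 96 bases before the start, TGACGT at 13, CCAAT at 233, 216 and 72, GGGCGG at 145 and TATAAA at 161. Glul held CCAAT at 113 and 50 and GGGCGG at 33, and Gja1 held TGANTCA at 19 and TGACGT at 201. The glucocorticoid palindrome occurred in 0 of the windows of the 8 astrocyte genes found in the promoter table.

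Celastrol was set against DMSO to ask which of the astrocyte genes differed after treatment. Gjb6 read higher and Sox9 lower on every celastrol array than on any DMSO array, by 0.43 and -0.37 log2 units, while the group means of Gfap, Slc1a2 and S100b differed by no more than 0.05. None of the 10 passed limma's adjusted p threshold of 0.05, at which 0.769% of all genes were called. At an unadjusted p under 0.05 there were 4 of 10 (Aqp4, Gjb6, Sox9 and Slc1a3), against 10.4% of all genes. The median difference over the 10 genes was -0.04, and over all 14953 genes it was -0.02.

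Gjb6 encodes a connexin that, with the product of Gja1, builds the gap junctions of mature astrocytes. It read 9.03, 8.72, 9.01 and 8.65 (log2 signal, replicates 1 to 4) with withaferin A, 9.04, 9.35, 9.31 and 9.13 with celastrol, and 8.89, 8.72, 8.64 and 8.82 with DMSO. The lowest celastrol array lay above the highest DMSO array, while the withaferin A arrays fell into a high pair (replicates 1 and 3) and a low pair within the DMSO range. Celastrol exceeded DMSO by 0.43 ± 0.10 (SE, n = 4 per group), or 1.35-fold, with a 95% interval of 0.22 to 0.65 and a limma adjusted p of 0.0698. Without celastrol replicate 2 the difference was 0.39 (adjusted p = 0.19).

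Sox9, a transcription factor that in the adult mouse brain is largely confined to astrocytes and ependymal cells, ran the other way. It read 9.62, 9.78, 9.57 and 9.52 with withaferin A, 9.65, 9.41, 9.40 and 9.22 with celastrol, and 9.79, 9.82, 9.73 and 9.81 with DMSO. The DMSO arrays were tightly grouped (SD 0.04) and all 4 celastrol arrays lay below them, spread over 0.43 units. The difference was -0.37 ± 0.08, with a 95% interval of -0.54 to -0.19 and a limma adjusted p of 0.063. Without celastrol replicate 2 it was again -0.37 (adjusted p = 0.158).

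Both genes therefore sat close to the threshold, and other settings moved them across it. Over 22 alternatives the adjusted p of Gjb6 ran between 0.0236 and 0.201 with 6 under 0.05, and that of Sox9 between 0.0167 and 0.183 with 5 under 0.05. Among the arrays left out singly, Gjb6 passed without withaferin A replicate 1 (0.0426) or 4 (0.0494) and Sox9 without celastrol replicate 1 (-0.44, adjusted p = 0.0282). Neither changed sign under any of them.

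Glul encodes glutamine synthetase, which turns glutamate and ammonia into glutamine. It read 12.80, 12.60, 12.77 and 12.40 with withaferin A, 12.78, 13.04, 12.84 and 12.88 with celastrol, and 12.77, 12.72, 12.57 and 12.74 with DMSO. The celastrol arrays again lay above the DMSO arrays, but the lowest of them, replicate 1, cleared the highest DMSO array by less than 0.01. Its difference was 0.19 ± 0.09 (adjusted p = 0.486), and 0.13 without celastrol replicate 2, which was its highest array. The second Glul probe set, 10350753, gave the same 0.19 with the groups overlapping, so the gap between the groups on probe set 10374453 was not seen on both. Gjb6 and Glul were the 2 genes of 10 wholly above DMSO and Sox9 the 1 wholly below, against 2.71% and 4.5% of all genes.

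Aqp4, the water channel of astrocyte endfeet, was at 9.57, 9.65, 9.41 and 9.43 with withaferin A, at 9.28, 9.36, 9.24 and 9.48 with celastrol, and at 9.52, 9.46, 9.63 and 9.58 with DMSO. Of the celastrol arrays, 3 lay below every DMSO array and replicate 4 lay within their range. The difference was -0.21 ± 0.07, with a 95% interval of -0.36 to -0.06 and a limma adjusted p of 0.253.

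The glutamate transporter gene Slc1a3 (GLAST) read 11.67, 11.77, 11.73 and 11.75 with withaferin A, 11.78, 11.66, 11.67 and 11.70 with celastrol, and 11.77, 11.83, 11.89 and 11.84 with DMSO. Here celastrol replicate 1 was the array that reached the DMSO range. The difference was -0.13 ± 0.05 (adjusted p = 0.325). Its partner Slc1a2 (GLT-1), which carries most glutamate uptake in the forebrain, had the narrowest range of the set. Its values were 12.21, 12.22, 12.28 and 12.25 with withaferin A, 12.23, 12.20, 12.24 and 12.18 with celastrol, and 12.28, 12.22, 12.26 and 12.24 with DMSO. Over all 12 arrays it stayed between 12.18 and 12.28, and celastrol differed from DMSO by -0.03 ± 0.04, with a 95% interval of -0.13 to 0.06.

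Gfap, the glial filament protein that rises in reactive astrocytes, differed mainly within groups. It read 9.23, 9.08, 9.46 and 8.93 with withaferin A, 8.96, 9.34, 9.03 and 9.41 with celastrol, and 9.07, 9.28, 9.24 and 9.33 with DMSO. The treated groups spread over 0.53 and 0.44 units, against 0.26 with DMSO, and both treated groups reached above and below the DMSO range. The difference of celastrol from DMSO was -0.05 ± 0.12, and its 95% interval of -0.30 to 0.21 covers shifts in either direction.

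Gja1, the most widely expressed connexin gene and the coupling partner of Gjb6, read 10.66, 10.64, 10.72 and 10.56 with withaferin A, 10.89, 10.94, 10.91 and 10.73 with celastrol, and 10.87, 10.77, 10.72 and 10.82 with DMSO. The withaferin A arrays were low, and all of them lay below the lowest celastrol array. Celastrol exceeded DMSO by 0.07 ± 0.06 with overlapping groups. Aldh1l1, a folate enzyme used as a pan-astrocyte label, read 8.93, 8.70, 8.88 and 8.75 with withaferin A, 8.96, 8.98, 9.02 and 8.92 with celastrol, and 8.81, 8.85, 8.95 and 9.03 with DMSO. The difference of celastrol was 0.06 ± 0.06, and the highest array of all was a DMSO one.

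S100b, a calcium-binding protein of astrocytes and some oligodendrocytes, read 9.70, 9.77, 9.83 and 9.75 with withaferin A, 9.83, 9.79, 9.81 and 9.64 with celastrol, and 9.68, 9.67, 9.89 and 9.98 with DMSO. The DMSO arrays had the widest spread of the 3 groups (SD 0.16) and enclosed all treated arrays but celastrol replicate 4. The difference of celastrol was -0.04 ± 0.08.

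**Figure D1:**
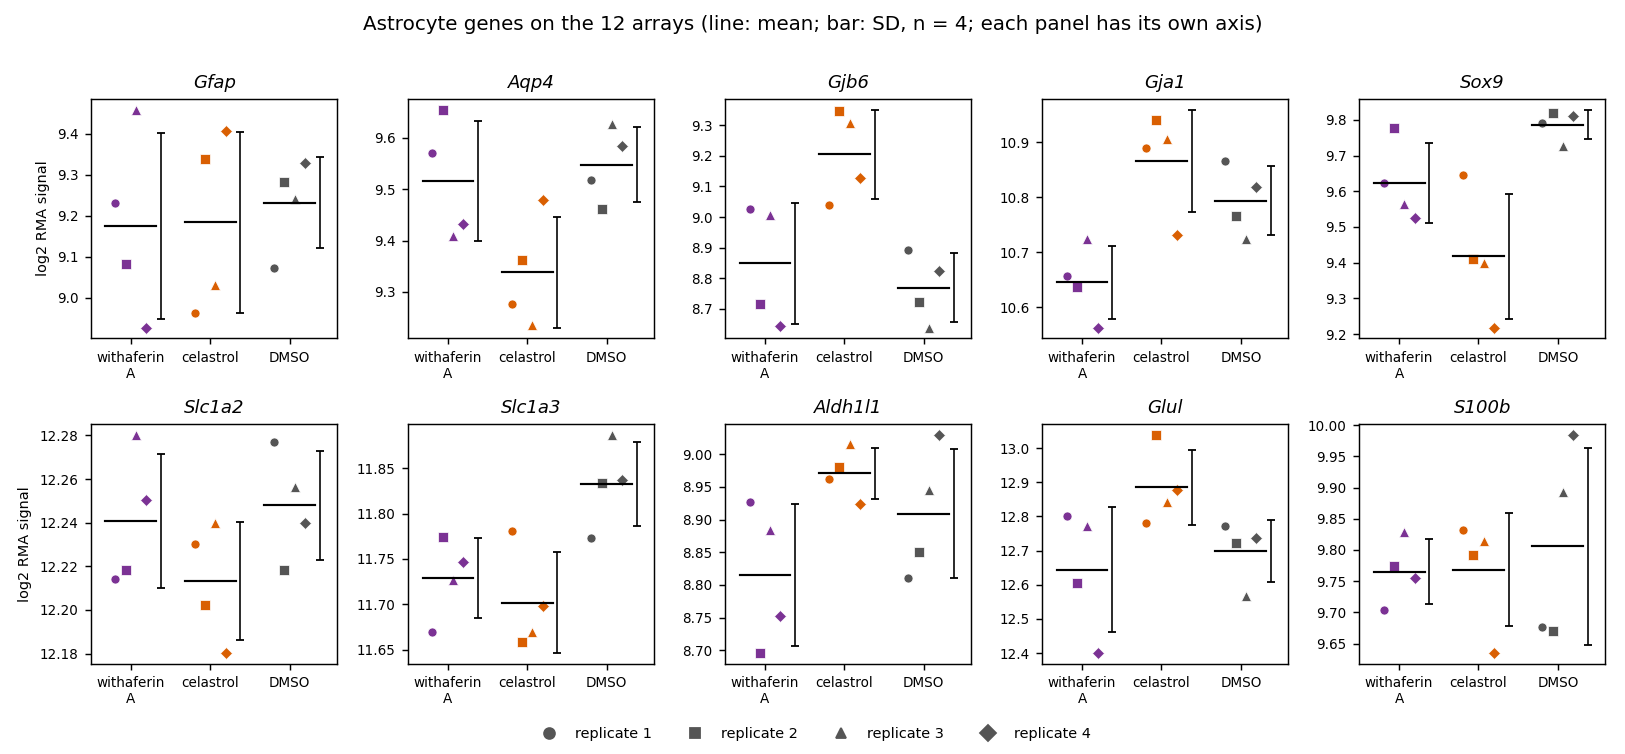
Log2 RMA signal of the 10 astrocyte genes on each array (vertical axis, a separate scale per panel) for withaferin A, celastrol and DMSO, with one symbol per replicate, the mean as a line and the SD as a bar (n = 4). Every celastrol point lies above the DMSO points for Gjb6 and Glul and below them for Sox9, and the withaferin A points of Gja1 lie below the celastrol points.

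Withaferin A was then set against DMSO. No astrocyte gene passed the adjusted threshold in limma, and neither did any of the 14953 genes (0% called). The count at an unadjusted p under 0.05 was 1 of 10, Gja1, against 15.7% of all genes. No astrocyte gene separated the 2 groups, while 2.91% of all genes lay wholly above DMSO and 4.69% wholly below. The 10 differences were small: 9 were negative and 1 positive, with a median of -0.06 against -0.0041 over all genes. That lean shifted with the scaling, in both directions. With quantile normalization repeated, 5 were positive and 5 negative, with a median of -0.0042 against 0.0071 over all genes. With each array centred on its median, the median of the 10 was -0.10 against -0.050 over all genes.

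Gja1 had a difference of -0.15 ± 0.06, with a 95% interval of -0.28 to -0.02 and a limma adjusted p of 0.263. Withaferin A replicate 3 was the array that overlapped with DMSO, by less than 0.01. Sox9 was at -0.16 ± 0.08 (95% interval -0.34 to 0.01, adjusted p = 0.347), with replicate 2 inside the DMSO range and the other 3 arrays below it. Slc1a3 was at -0.10 ± 0.05 and Aldh1l1 at -0.09 ± 0.06. Gjb6, the sole positive value, was at 0.08 ± 0.10, or 0.02 without withaferin A replicate 1, and its withaferin A arrays varied more (SD 0.20) than those of DMSO (SD 0.11). Gfap (-0.06 ± 0.12), Glul (-0.05 ± 0.09), S100b (-0.04 ± 0.08), Aqp4 (-0.03 ± 0.07) and Slc1a2 (-0.01 ± 0.04) had 95% intervals that included 0. Both comparisons use the same 4 DMSO arrays, so their values are not independent of each other.

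The direct comparison of withaferin A with celastrol, at the different doses given, called 0 of the 10 genes in limma, against 0.0468% of all genes. At an unadjusted p under 0.05 there were 6 of 10 (Aqp4, Gjb6, Gja1, Sox9, Aldh1l1 and Glul), against 16.1% of all genes. Gjb6 and Gja1, the pair of connexins, were the 2 genes of 10 that lay wholly below celastrol, against 5.35% of all genes, and 0 lay wholly above, against 3.92%. Both gaps were narrow: the highest withaferin A arrays read 9.027 and 10.724, and the lowest celastrol arrays 9.038 and 10.731. Gjb6 was at -0.36 ± 0.10 (95% interval -0.57 to -0.14, adjusted p = 0.159) and Gja1 at -0.22 ± 0.06 (95% interval -0.35 to -0.09, adjusted p = 0.148).

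Glul was at -0.24 ± 0.09 (95% interval -0.43 to -0.05) and Aldh1l1 at -0.16 ± 0.06 (-0.30 to -0.02), with adjusted p values of 0.22 and 0.266. On the other side, Sox9 was at 0.20 ± 0.08 (0.03 to 0.38) and Aqp4 at 0.18 ± 0.07 (0.02 to 0.33), both with an adjusted p of 0.252. Slc1a2 and Slc1a3 were both at 0.03, with 95% intervals of -0.07 to 0.12 and -0.08 to 0.13. Gfap and S100b were at -0.01 and -0.0030, with intervals of -0.27 to 0.25 and -0.16 to 0.16. The median of the 10 was -0.01, against 0.01 over all genes.

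**Figure D2:**
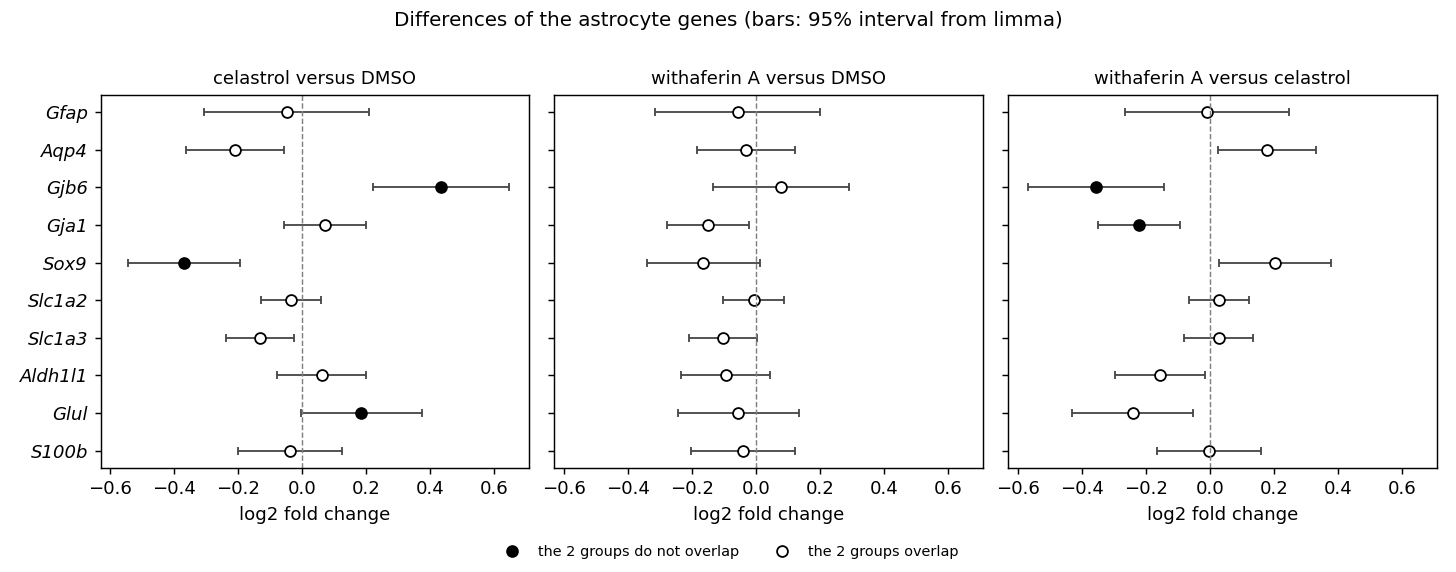
Differences in log2 signal of the 10 astrocyte genes (horizontal axis, with limma's 95% interval as a bar) in the 3 comparisons, with filled points where the arrays of the 2 groups do not overlap. Gjb6 lies at 0.43, 0.08 and -0.36 in the 3 panels and Sox9 at -0.37, -0.16 and 0.20, and no point passed the adjusted p threshold of 0.05.

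Within the groups, some of the genes varied together. With each group's mean taken off, the 45 pairs of genes had a median correlation of 0.06 over the 12 arrays, between -0.83 and 0.88, with 26 positive. The pairs share arrays, so these values are a description and carry no test. Gjb6 and Glul were the closest pair, with r = 0.88, a rank correlation of 0.90, and r = 0.83 without 2 arrays. Gjb6 and Gja1 followed (r = 0.71, or 0.70 without 2 arrays), then Gfap and Glul (0.65, or 0.44) and Gja1 and Glul (0.61, or 0.64). Slc1a3 ran against Gjb6 (r = -0.83, or -0.85 without 2 arrays) and Glul (-0.68, or -0.59). It ran more weakly against Gja1 (-0.38, or -0.55) and Gfap (-0.26, or -0.27). Aqp4 ran against Slc1a2 (-0.65, or -0.46 without 2 arrays). In the withaferin A group replicates 1 and 3 were high and replicates 2 and 4 low for Gjb6, Glul, Gfap and Aldh1l1 alike.

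**Figure D3:**
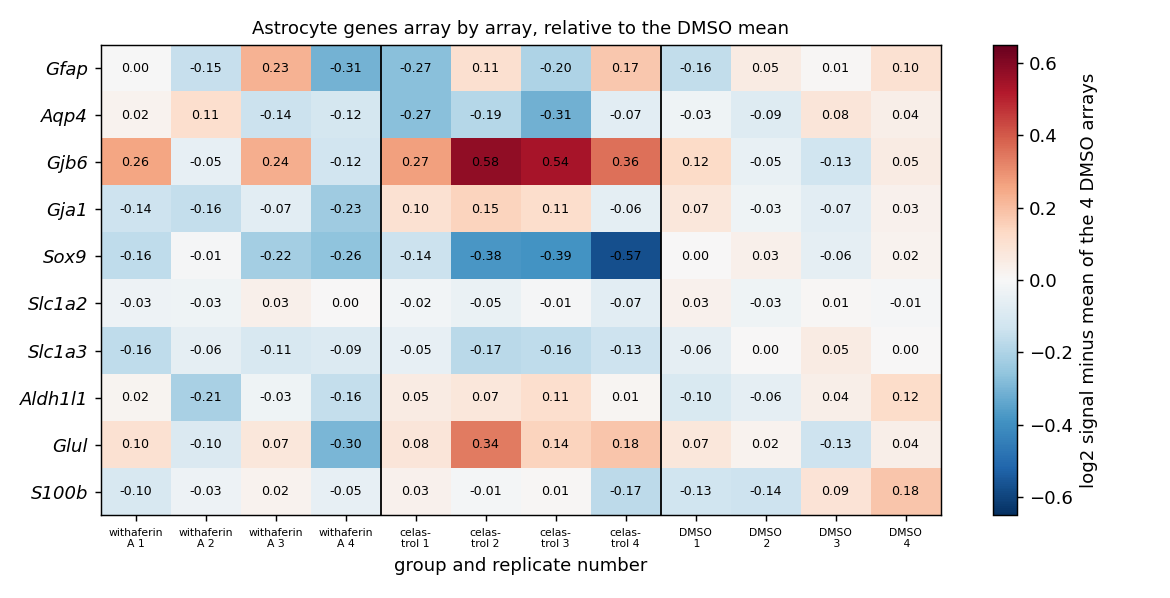
Log2 signal of each astrocyte gene minus its DMSO mean on each of the 12 arrays (columns, by group and replicate number), with the value in each cell and red for higher. Gjb6 is at 0.27 to 0.58 on the celastrol arrays and at 0.26 and 0.24 on withaferin A replicates 1 and 3, while Sox9 is at -0.14 to -0.57 on the celastrol arrays.

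Beyond the 10, a list of 56 other genes enriched in astrocytes was examined, of which 55 were tested. Like the 10 genes, this list and those below were chosen with earlier results of these data known. Their shares beside those of all genes are therefore a description and carry no test. With celastrol 3 rose (0.455% of all genes did), 2 fell (0.314%) and 50 did not pass. At an unadjusted p under 0.05 there were 23 of 55 in either direction, against 10.4% of all genes. The median was 0.01, against -0.02 over all genes. Of the 55 members, 12 lay wholly above DMSO (2.71% of all genes did) and 12 wholly below (4.5%). With withaferin A 0 of 55 passed in limma against DMSO (19 at an unadjusted p under 0.05, against 15.7% of all genes) and 0 of 55 against celastrol (12 unadjusted, against 16.1%).

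F3, tissue factor, the starter of blood clotting that astrocytes display at the brain's vessels, rose with celastrol by 0.77 ± 0.12 (limma adjusted p = 0.0146). It read 10.47, 10.04, 10.36 and 9.94 with withaferin A, 10.56, 10.89, 10.58 and 10.59 with celastrol, and 9.91, 9.81, 9.76 and 10.06 with DMSO. All celastrol arrays exceeded all others, and withaferin A replicates 1 and 3 lay above the DMSO range.

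Mertk, a receptor with which astrocytes engulf synapses and debris and which microglia also carry, rose by 0.86 ± 0.17 (adjusted p = 0.0366). Its values were 9.67, 8.93, 9.34 and 8.71 with withaferin A, 9.38, 9.42, 9.58 and 9.86 with celastrol, and 8.79, 8.63, 8.67 and 8.71 with DMSO. Withaferin A replicate 1 reached the celastrol range and replicate 4 the DMSO range. Mt1, a metallothionein that binds zinc and responds to glucocorticoids and metals, rose by 0.45 ± 0.09 (adjusted p = 0.0458), at 12.51, 12.16, 12.30 and 12.01 with withaferin A, 12.39, 12.56, 12.33 and 12.45 with celastrol, and 11.87, 11.96, 12.06 and 12.06 with DMSO.

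Sox2, a stem cell and glial transcription factor, fell by 0.43 ± 0.09 with celastrol (adjusted p = 0.0431). It read 9.42, 9.59, 9.46 and 9.52 with withaferin A, 9.20, 9.46, 9.35 and 9.44 with celastrol, and 10.01, 9.90, 9.62 and 9.66 with DMSO. Every treated array of either compound lay below every DMSO array. With withaferin A its difference was -0.30 ± 0.09, with an adjusted p of 0.183.

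Ednrb, the endothelin B receptor of astrocytes, fell by 0.36 ± 0.08 with celastrol (adjusted p = 0.0488). Its values were 9.94, 10.21, 10.04 and 10.16 with withaferin A, 9.79, 9.84, 9.86 and 10.11 with celastrol, and 10.19, 10.23, 10.31 and 10.32 with DMSO. Celastrol replicate 4 was the array nearest to DMSO. With withaferin A the members of the list with the smallest p were the potassium channels Kcnj16 (-0.27 ± 0.06, adjusted p = 0.155) and Kcnj10 (-0.21 ± 0.06, 0.169), the NMDA receptor subunit Grin2c (0.25 ± 0.07, 0.169) and Sox2. Both channels let astrocytes take up potassium released by active neurons.

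Among 15 tested genes of glutamate and glutamine handling outside the set, 1 rose (0.455% of all genes) and 1 fell (0.314%) with celastrol. Slc38a3 (SNAT3), through which astrocytes release glutamine, fell by 0.40 ± 0.08 (adjusted p = 0.0326). It read 9.90, 10.23, 9.98 and 10.25 with withaferin A, 9.96, 9.97, 9.86 and 9.91 with celastrol, and 10.32, 10.24, 10.36 and 10.39 with DMSO. The celastrol arrays formed a narrow band below DMSO, and withaferin A replicates 1 and 3 lay in or near it. Gpt2, a mitochondrial alanine aminotransferase that draws on glutamate, rose by 0.32 ± 0.07 (adjusted p = 0.0474), with 9.43, 9.22, 9.49 and 9.17 with withaferin A, 9.51, 9.58, 9.52 and 9.50 with celastrol, and 9.21, 9.23, 9.21 and 9.17 with DMSO. With withaferin A none of the 15 passed in limma against DMSO (1 at an unadjusted p under 0.05, where 15.7% of all genes lay).

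A list of other gap junction genes, which also holds Tjp1, not a connexin gene, had 10 tested members. The endfoot complex and aquaporins had 12, and a list of filament partners that also holds Inhba, not a filament gene, had 7. None of these genes passed with celastrol in limma. Their counts at an unadjusted p under 0.05 were 4, 0 and 1, where the share of all genes was 10.4%. Gjc3, a connexin of myelinating glia, was at -0.22 ± 0.08 (adjusted p = 0.305). Vimentin (Vim), the filament partner of Gfap and a known binding protein of withaferin A, was at -0.16 ± 0.06 with withaferin A (adjusted p = 0.265) and at -0.14 ± 0.06 with celastrol (0.455). In the list of SoxE, S100 and folate genes around Sox9, S100b and Aldh1l1, 1 of 15 passed with celastrol (0.769% of all genes). This was Sox10, the oligodendrocyte relative of Sox9, which fell by 0.39 ± 0.08 (adjusted p = 0.0433) and read 8.34, 8.50, 8.53 and 8.65 with withaferin A, 8.47, 8.33, 8.31 and 8.12 with celastrol, and 8.69, 8.67, 8.82 and 8.63 with DMSO.

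Genes known to rise in reactive astrocytes of the mouse were examined in 3 lists. Of the genes shared by several kinds of injury, 10 were tested and 2 rose with celastrol (0.455% of all genes). Lcn2, a secreted iron-trapping lipocalin, rose by 3.45 ± 0.51 (adjusted p = 0.0141). It read 9.31, 7.07, 6.88 and 6.32 with withaferin A, 9.63, 10.83, 10.50 and 9.59 with celastrol, and 7.30, 6.32, 6.54 and 6.62 with DMSO. Withaferin A replicate 1 was the one array of its group close to celastrol. Osmr, the oncostatin M receptor, rose by 1.26 ± 0.21 (adjusted p = 0.0191), at 7.97, 7.15, 7.72 and 6.82 with withaferin A, 7.94, 8.30, 8.19 and 8.29 with celastrol, and 7.21, 7.06, 6.54 and 6.88 with DMSO.

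Of the same list, Cp (ceruloplasmin) was at 0.60 ± 0.14 (adjusted p = 0.0751) and Serpina3n, a protease inhibitor, at 0.43 ± 0.10 (0.078) with celastrol, and Gfap and Vim, which belong to this reactive state as well, were at -0.05 and -0.14. Of 13 listed genes known from endotoxin, 7 had a probe set and 5 were tested, so the values cover only a part of that list. Among the 5 tested, 1 rose (0.455% of all genes): Fkbp5, by 1.21 ± 0.23 (adjusted p = 0.0369). It is also a textbook glucocorticoid-induced gene, and it read 9.03, 7.59, 8.18 and 7.67 with withaferin A, 8.61, 8.56, 8.83 and 8.92 with celastrol, and 7.39, 7.48, 7.58 and 7.65 with DMSO. Among 10 tested genes known from stroke, 1 rose (0.455% of all genes): Ptgs2 (cyclooxygenase 2, which neurons also make), by 0.85 ± 0.15 (adjusted p = 0.0229). At an unadjusted p under 0.05, in either direction, the 3 lists had 5 of 10, 2 of 5 and 4 of 10 with celastrol (10.4% of all genes). The medians of the 3 lists were 0.04, 0.16 and 0.07. With withaferin A no gene of the 3 lists passed in limma against DMSO, and 3, 1 and 1 did at an unadjusted p under 0.05 (15.7% of all genes). Against celastrol none passed either, with unadjusted counts of 6, 4 and 1 (16.1% of all genes). The withaferin A minus celastrol difference was -2.74 ± 0.51 for Lcn2 (adjusted p = 0.0713) and -0.72 ± 0.15 for Ptgs2 (0.0882).

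Markers of other cells bear on bulk values, and their part in the results was not tested. Of 11 tested oligodendrocyte markers, 2 fell with celastrol, against 0.314% of all genes: Sox10, named above, and Opalin, a myelin protein, which fell by 1.0 ± 0.18 (adjusted p = 0.0229). At an unadjusted p under 0.05 there were 8 of 11 in either direction, against 10.4% of all genes. Of the 11, 6 lay wholly below DMSO (4.5% of all genes did) and 1 wholly above (2.71%). The median was -0.20, against -0.02 over all genes. The list did not move as 1: 8 differences were negative and 3 positive, among the latter Mobp at 0.31 ± 0.08 (adjusted p = 0.127). The mean level of the 11 was -0.27 to -0.06 relative to DMSO with withaferin A, -0.23 to -0.19 with celastrol and between -0.04 and 0.05 with DMSO. Of 11 endothelial markers, 2 passed (0.769% of all genes). Slc2a1, the glucose transporter GLUT1, which astrocytes also carry, rose by 0.75 ± 0.15 (adjusted p = 0.0384), and Tek, the angiopoietin receptor, fell by 0.55 ± 0.11 (adjusted p = 0.045). None of 12 neuron, 10 microglia, 10 tanycyte or 7 ependymal markers passed with celastrol in limma, and 0, 3, 3 and 0 did at an unadjusted p under 0.05 (10.4% of all genes). The mean level of 8 pericyte markers, of which none passed and 2 had an unadjusted p under 0.05, was -0.19 to -0.02 relative to DMSO with withaferin A, -0.11 to -0.09 with celastrol and -0.04 to 0.06 with DMSO, so the celastrol arrays lay below the DMSO arrays. The mean level of 11 thalamus genes, tissue next to the hypothalamus, spread over -0.22 to 0.50 with withaferin A, -0.08 to 0.67 with celastrol and -0.36 to 0.50 with DMSO. The tanycyte list includes Dio2, the thyroid hormone deiodinase also made by astrocytes, at 0.50 ± 0.12 (adjusted p = 0.0922).

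For the 15 list genes called with celastrol, many calls were lost when 1 array was left out, while no difference changed sign. Leaving out an array also leaves fewer arrays for the test, and that part of the loss was not separated from the values of the array. With arrays left out, Lcn2 stayed at 3.22 to 3.65, Gpt2 at 0.30 to 0.33 and Opalin at -1.07 to -0.95. Without DMSO replicate 2 all 15 missed the adjusted threshold, F3 among them, with adjusted p values of 0.0682 to 0.149. Without celastrol replicate 2 or 3, 14 of 15 missed it, the exception being F3, at 0.0524 to 0.15 and 0.051 to 0.147. The counts were 12, 9 and 13 of 15 without DMSO replicate 1, 3 or 4 (up to 0.148, 0.113 and 0.149), 9 and 10 without celastrol replicate 1 or 4 (up to 0.124 and 0.095), and 5, 5 and 2 without withaferin A replicate 2, 3 or 4 (up to 0.0558, 0.0666 and 0.0551). All 15 passed without withaferin A replicate 1.

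**Figure D4:**
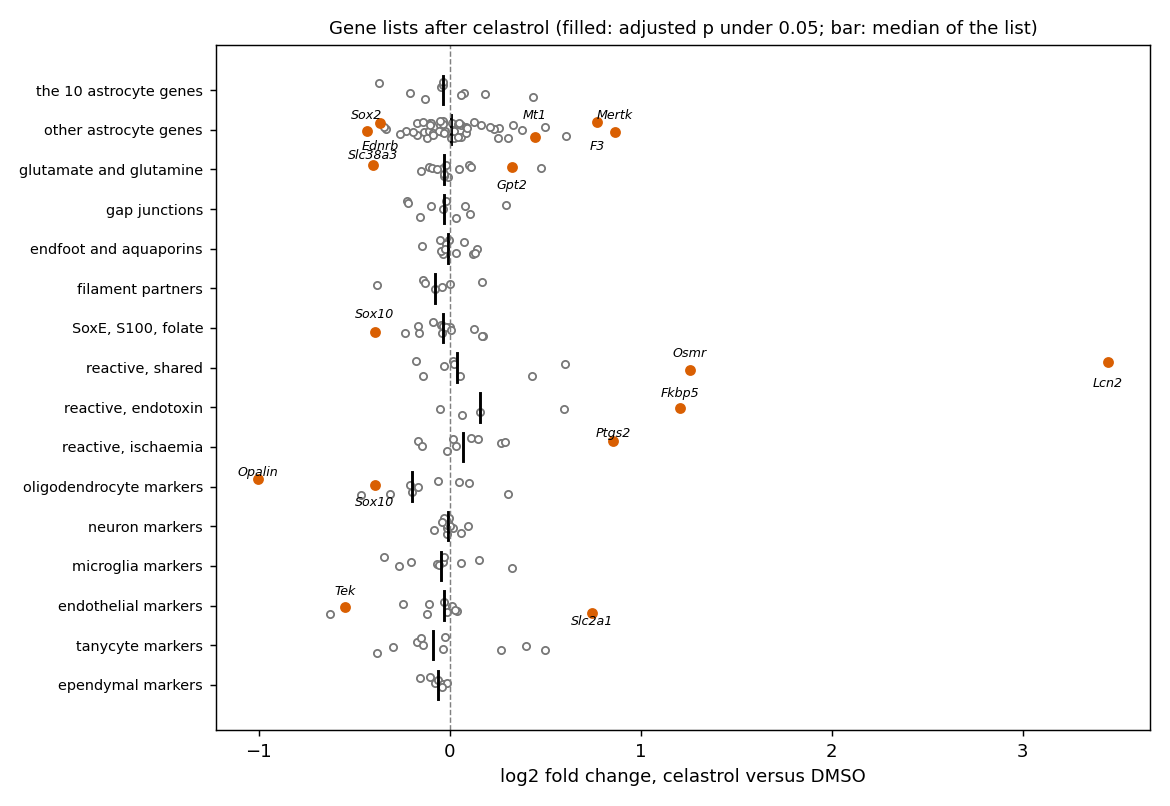
Difference in log2 signal with celastrol against DMSO (horizontal axis) of every tested gene in the 10 astrocyte genes and 15 related lists (rows), with the list median as a bar and named, filled points where limma's adjusted p was under 0.05. The medians of the astrocyte lists lie near 0, and the called points are single genes such as Lcn2 at 3.45 and Opalin at -1.0.

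**Figure D5:**
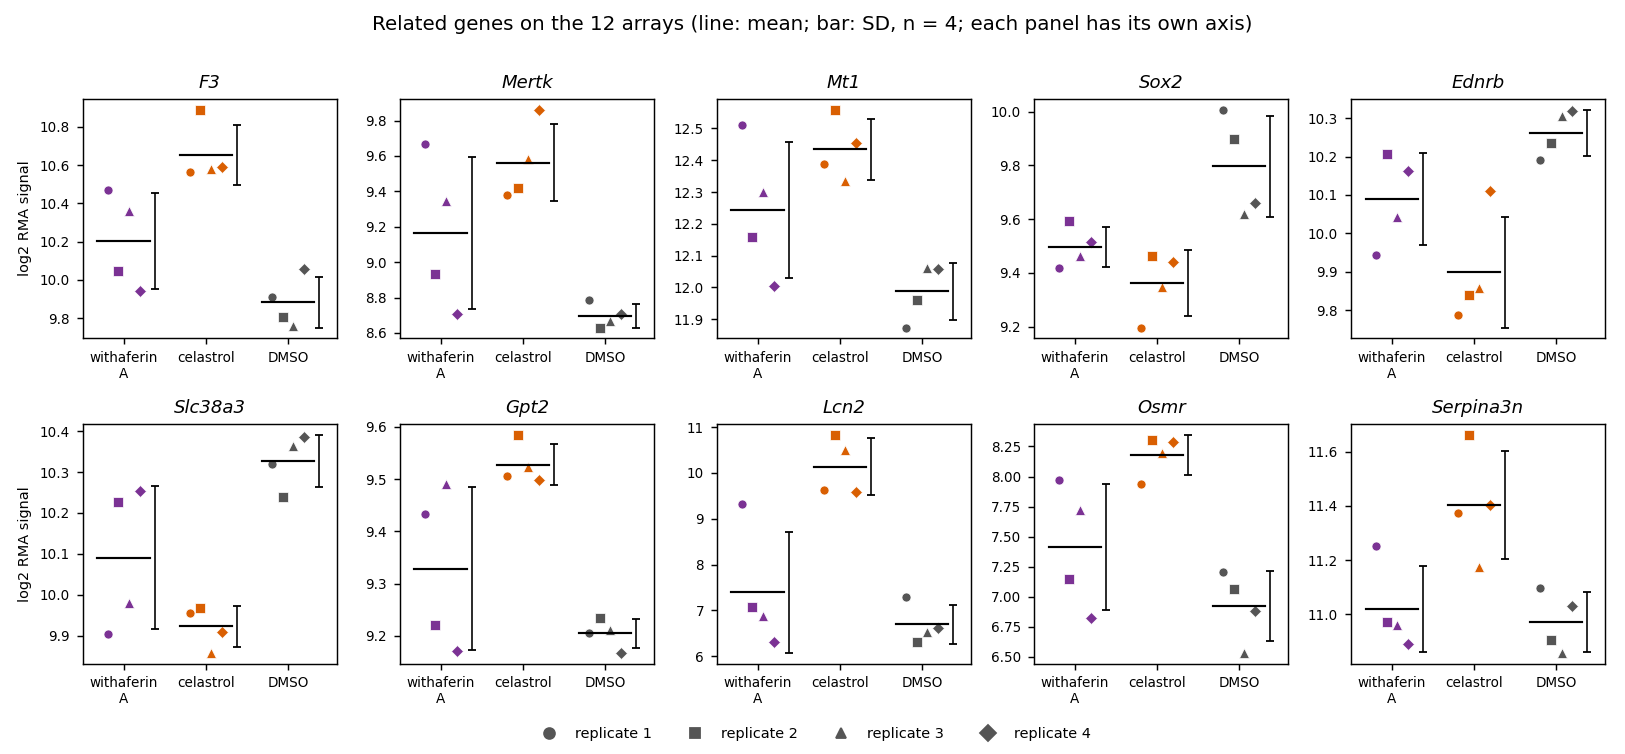
Log2 RMA signal of 10 related genes on each array (vertical axis, a separate scale per panel) for withaferin A, celastrol and DMSO, with one symbol per replicate, the mean as a line and the SD as a bar (n = 4). For F3, Mertk, Gpt2 and Osmr the withaferin A replicates 1 and 3 lie above replicates 2 and 4, and for Slc38a3 they lie below them.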

How the data were processed

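Total hypothalamic RNA was hybridised to 12 one-colour Affymetrix arrays, 4 per group. Per the submitters' processing notes, the authors made the deposited log2 signals with RMA, which corrects background, equalises array distributions and summarises probes; its version is not given in the sources used here. Of 35556 probe sets, 21789 carried 1 symbol, 1621 several and 12146 none, and those with several or none were left out. Genes whose mean was under the 25th percentile were dropped. A linear model with 1 mean per group was fitted in limma 3.58.1 (lmFit, eBayes; R 4.3.3) over all 12 arrays, with two-sided tests and Benjamini-Hochberg adjustment over 14953 genes. Spread was pooled over the groups (9 residual and 4.44 prior degrees of freedom), and the number of arrays limits the precision. Named were all 10 astrocyte genes, from each list described every called gene and up to 4 with the smallest p, and the 5 genes most correlated with the set by either of 2 measures. The members and lists were chosen with earlier results of these data known. Alternatives for the gene values were no dim filter or a filter at the 50th percentile, the mean of a gene's probe sets, renewed quantile normalization and median centring. Alternatives for the model were array weights, eBayes with trend and robust options, the 8 arrays of 2 groups and a replicate block. Each array was also left out in turn. Celastrol replicate 2 and withaferin A replicate 1 were left out together, a setting chosen after seeing the data. The steps were tested on simulated data. Plots used matplotlib 3.10.9.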

Additional observations from a re-analysis of the deposited data

Results flagged for a closer look

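Of 75 groups of 4 arrays examined for a single distant array, 1 stood out by Dixon's criterion, where chance alone picks out about 1 in 20. F3, tissue factor, read 10.89 on celastrol replicate 2, while the other celastrol arrays lay between 10.56 and 10.59. The gap to the nearest array made up 0.922 of the range of the group. Celastrol replicate 2 is also the array with the highest Gh (10.96) and Prl (9.80) signals. Without it F3 kept its call.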

How the results depend on the processing

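The number of genes called between celastrol and DMSO was 115. It was 60 with no dim filter, 195 with an intensity trend and robust prior together, 219 with array weights, 182 with the 8 arrays of the 2 groups, and 6 to 207 with 1 array left out (6 without DMSO replicate 2, 12 without celastrol replicate 3, 17 without celastrol replicate 2, 20, 62 and 32 without DMSO replicate 1, 3 or 4, 67 without celastrol replicate 1, 207 without withaferin A replicate 1). Between withaferin A and DMSO it was 0, against 8 with trend and robust prior, 21 with weights and 0 to 172 with 1 array left out (172 without DMSO replicate 3, 1 without withaferin A replicate 3). Between withaferin A and celastrol it was 7, against 11 with no filter, 13 with the 50th percentile filter, 12 after centring, 29 with trend and robust prior, 19 with weights, 0 with 8 arrays, 17 without celastrol replicate 2 and withaferin A replicate 1 together (chosen after seeing the data), and 0 to 56 with 1 array left out (0 without celastrol replicate 3 or withaferin A replicate 4, 1 without celastrol or withaferin A replicate 2, 15 without celastrol replicate 4, 56 without withaferin A replicate 1).

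The count of astrocyte genes called with celastrol was 0, but 2 with the 50th percentile filter, with trend and robust prior and with weights, 1 after centring or with 8 arrays, and 0 to 1 with 1 array left out. In the other comparisons it was 0 under all 22 alternatives. With arrays left out, the median difference of the 10 genes for withaferin A against DMSO lay between -0.10 (without withaferin A replicate 3) and -0.024. Against celastrol it lay between -0.064 and 0.024. The median against DMSO was -0.0042 with quantile normalization repeated and -0.10 after median centring.

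Signs turned only for astrocyte genes close to 0. With celastrol against DMSO, leaving out 1 array gave -0.12 to 0.026 for Gfap and -0.083 to 0.022 for S100b. With withaferin A against DMSO it gave -0.15 to 0.025 for Gfap, -0.078 to 0.0047 for Aqp4, -0.020 to 0.0027 for Slc1a2, -0.11 to 0.026 for Glul and -0.086 to 0.019 for S100b. Renewed quantile normalization gave 0.012 for Aqp4, 0.079 for Slc1a2, 0.036 for Glul and 0.012 for S100b, and Slc1a2 was 0.00029 with weights and 0.0017 without both arrays. With withaferin A against celastrol, Gfap was 0.020 after quantile normalization, 0.0029 with weights, 0.023 without both arrays and -0.10 to 0.073 with 1 left out. S100b was 0.041, 0.025 without both arrays and -0.047 to 0.018, and centring gave -0.0067 for Slc1a2 and -0.0071 for Slc1a3. The cause of these turns was not tested.

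Arrays with the same replicate number in 2 groups deviated with correlations of -0.281 to 0.119. Differently numbered arrays were not set beside them, so these values cannot show whether the replicate numbers mark a shared block. A replicate block called 54 genes between celastrol and DMSO, with adjusted p values of 0.141 for Gjb6 and 0.087 for Sox9. F3 kept its call with the block (0.0379). Of 22 alternatives, the call was lost in 1 for F3, 3 for Lcn2, 4 for Osmr, 6 for Opalin, 10 for Slc38a3, 11 for Mertk, Fkbp5 and Slc2a1, 12 for Sox10, 13 for Mt1 and Gpt2, and 14 for Sox2 and Ednrb. Of 21, it was lost in 5 for Ptgs2 and 11 for Tek, both too dim for the 50th percentile filter. The precision is limited by the 4 arrays per group.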

Other observations

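The genes outside the set whose 12 array values were most like the mean of the 10 standardised astrocyte genes were Vezf1 (r = 0.89), Usp5 (0.86), Ldb1 (0.85), Pld4 (0.85) and Rab7 (0.85). Without 2 arrays these correlations were 0.64, 0.77, 0.62, 0.59 and 0.52. With group means taken off the closest were Zkscan4 (0.94), Bap1 (0.91), Hspb8 (0.91), Pi16 (0.89) and Tfcp2l1 (0.88), and without 2 arrays 0.88, 0.88, 0.81, 0.87 and 0.95. Of these, Hspb8 is a small heat shock protein and Bap1 a deubiquitinase. All points share the same 12 arrays and were picked as the highest of all genes tested, so the values are a description.

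On several genes the withaferin A arrays fell into the same order. For Slc2a1, the glucose transporter, they read 12.45, 11.62, 12.09 and 11.64, against 12.23, 12.30, 12.44 and 12.40 with celastrol and 11.51, 11.47, 11.69 and 11.72 with DMSO, so that replicates 1 and 3 lay above the DMSO range and replicates 2 and 4 within it. For Opalin they read 7.60, 8.53, 7.75 and 8.46, against 7.74, 7.59, 7.48 and 7.40 with celastrol and 8.58, 8.47, 8.45 and 8.73 with DMSO. The labels give all 4 arrays of the group the same treatment, and dosing or labelling of single arrays cannot be checked from them.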
